A study of Mus musculus with 10 samples.

Results

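The fractalkine axis was described here by 5 genes: the ligand Cx3cl1, the receptor Cx3cr1 and 3 proteases known to cut the ligand, Adam10, Adam17 and Ctss. They were chosen by gene name, and each name matched 1 row, giving 5 of the 43346 genes in the table. All 5 passed the filter on low values. The 10 libraries were of RNA from the outflow vein of an arteriovenous fistula, a direct join of an artery to a vein. The 5 antibody libraries came from mice given antibody at 30 mg/kg, and the 5 vehicle libraries from mice given an equal volume of vehicle, both into the peritoneum 2 times per week. All mice of both groups carried a knock-in of human CX3CR1 on a strain labelled C57. In all of them chronic kidney disease was created 28 days before the fistula, which joined carotid artery and jugular vein, and the vein was taken 7 days after it. The treatment text speaks of an antibody to human CX3CR1, whereas the title and design text name fractalkine, so the antibody's target is not settled by the labels. How the knock-in was built is not stated in the labels, nor is the number of animals behind a library, so p-values measure the spread between these libraries.

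Fractalkine (CX3CL1) is a chemokine held on a mucin-like stalk at the surface of endothelial, epithelial and nerve cells, where it can tether leukocytes that carry CX3CR1. Cutting the stalk releases a soluble chemoattractant. ADAM10 is known mainly for constitutive shedding and ADAM17 for shedding after stimulation, while cathepsin S, a lysosomal cysteine protease of macrophages, was described as a fractalkine-cleaving enzyme in rat spinal cord. CX3CR1 marks patrolling monocytes, many tissue macrophages and some lymphocytes.

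The members differ in the sequence around their start sites, and the 4 sequences that held a motif searched are shown. They are RefSeq sequences of build GRCm38.p6, from 250 bases before to 50 bases after the start. Capitals mark matches, on either strand, to the TATA box TATAAA, the GC box GGGCGG, the interferon response core (GAAA, any 2 bases, GAAA) and the PU.1 element GAGGAAGT. Cx3cl1 lies on the plus strand of chromosome 8 (chr8:94771930-94772229), Adam10 on the plus strand of chromosome 9 (chr9:70678732-70679031), Adam17 on the minus strand of chromosome 12 (chr12:21373583-21373882) and Ctss on the plus strand of chromosome 3 (chr3:95526536-95526835).
Cx3cl1: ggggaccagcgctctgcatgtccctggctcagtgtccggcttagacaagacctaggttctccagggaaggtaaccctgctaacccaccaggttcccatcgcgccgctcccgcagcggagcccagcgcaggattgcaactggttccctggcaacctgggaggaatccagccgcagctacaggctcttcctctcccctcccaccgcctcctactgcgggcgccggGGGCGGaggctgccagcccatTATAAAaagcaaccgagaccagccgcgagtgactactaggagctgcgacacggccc
Adam10: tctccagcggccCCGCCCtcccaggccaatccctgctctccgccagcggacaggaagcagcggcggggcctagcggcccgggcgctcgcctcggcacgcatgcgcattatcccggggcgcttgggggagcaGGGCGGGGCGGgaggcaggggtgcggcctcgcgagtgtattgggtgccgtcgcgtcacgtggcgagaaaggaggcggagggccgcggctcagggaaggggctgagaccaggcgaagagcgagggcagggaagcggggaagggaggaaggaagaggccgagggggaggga
Adam17: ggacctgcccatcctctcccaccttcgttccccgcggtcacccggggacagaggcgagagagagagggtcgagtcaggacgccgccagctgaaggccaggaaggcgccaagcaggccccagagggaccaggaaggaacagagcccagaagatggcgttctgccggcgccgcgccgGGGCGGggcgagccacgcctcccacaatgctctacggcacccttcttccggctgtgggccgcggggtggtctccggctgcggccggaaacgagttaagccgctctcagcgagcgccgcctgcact
Ctss: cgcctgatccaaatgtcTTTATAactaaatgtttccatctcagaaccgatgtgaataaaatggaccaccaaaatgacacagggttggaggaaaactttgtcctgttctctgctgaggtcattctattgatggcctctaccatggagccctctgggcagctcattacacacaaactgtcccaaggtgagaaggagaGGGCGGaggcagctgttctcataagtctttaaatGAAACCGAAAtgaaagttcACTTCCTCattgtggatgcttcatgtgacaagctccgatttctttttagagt

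The window of Cx3cl1 held 1 GC box and, directly before the RefSeq start, 1 TATA box. The gene row of Cx3cl1 begins upstream of that start, at 94772009, so both matches lie inside its annotated span. The windows of Adam10 and Adam17 held 3 and 1 GC boxes and no TATA box, and were rich in G and C (73.3% and 70.0%, against 44.0% in Ctss). Among the 3 GC boxes of Adam10, 2 overlap by a base. The Ctss window held 1 match to each of the 4 motifs. Its TATA box match was on the opposite strand, near the upstream end of the window and far from the start. The Cx3cr1 window, not printed, held 0 matches and had 54.3% G and C. Of the 32851 promoter windows in the RefSeq table, 13.6% held the TATA box, 35.7% the GC box, 3.44% the interferon core and 3.20% the PU.1 element. A match describes these letters only and does not show that a factor binds there.

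Depth ran from 4282872 reads in the shallowest library, antibody replicate 3, to 34271554 reads in the deepest, vehicle replicate 4. Mean depth was lower under antibody, at 1.31e+07 reads (SD 7.11e+06), than under vehicle, at 2.18e+07 reads (SD 8.59e+06, n = 5 each). Levels below are RPKM, reads per kilobase of gene length and per library depth, scaled for composition between libraries. Of 17859 genes tested by limma, 0 had an adjusted p below 0.05 (0%), although 1167 had an unadjusted p below 0.05 (6.53%). With limma-voom, run on reads recovered from the RPKM values, 0 genes were called and 1061 had an unadjusted p under 0.05. The 9 endothelial markers were all read in every library, with summed levels of 199 to 245 RPKM under antibody and 196 to 243 RPKM under vehicle. Skeletal muscle genes were highest in antibody replicate 5 and vehicle replicates 4 and 5, and summed to 316 to 3436 RPKM under antibody and 556 to 6069 RPKM under vehicle. In bulk tissue, fewer cells of a type and less RNA per cell cannot be told apart.

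None of the 5 members passed the test. Their log2 differences were above 0 in 4 of 5, against 48.8% of all genes tested, and below 0 for Ctss. Adam10, with a mean of 23.4 RPKM over all libraries, had the smallest coefficient of variation of the 5 and was higher in every antibody library than in any vehicle library, by a fitted 1.12-fold. Groups did not overlap in 1.11% of all genes tested. With medians of ratios or library totals as scaling, the Adam10 groups overlapped. Adam17 had a positive difference too, with overlapping groups. Cx3cl1, Cx3cr1 and Ctss had intervals that reached well to both sides of no difference. Per kilobase, Ctss stood above Adam10, Adam10 above Adam17 and Adam17 above both Cx3cr1 and Cx3cl1 in 10 of 10 libraries. Cx3cr1 exceeded Cx3cl1 in 7 of 10, so the receptor and the ligand had no fixed order.

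**Figure D1:**
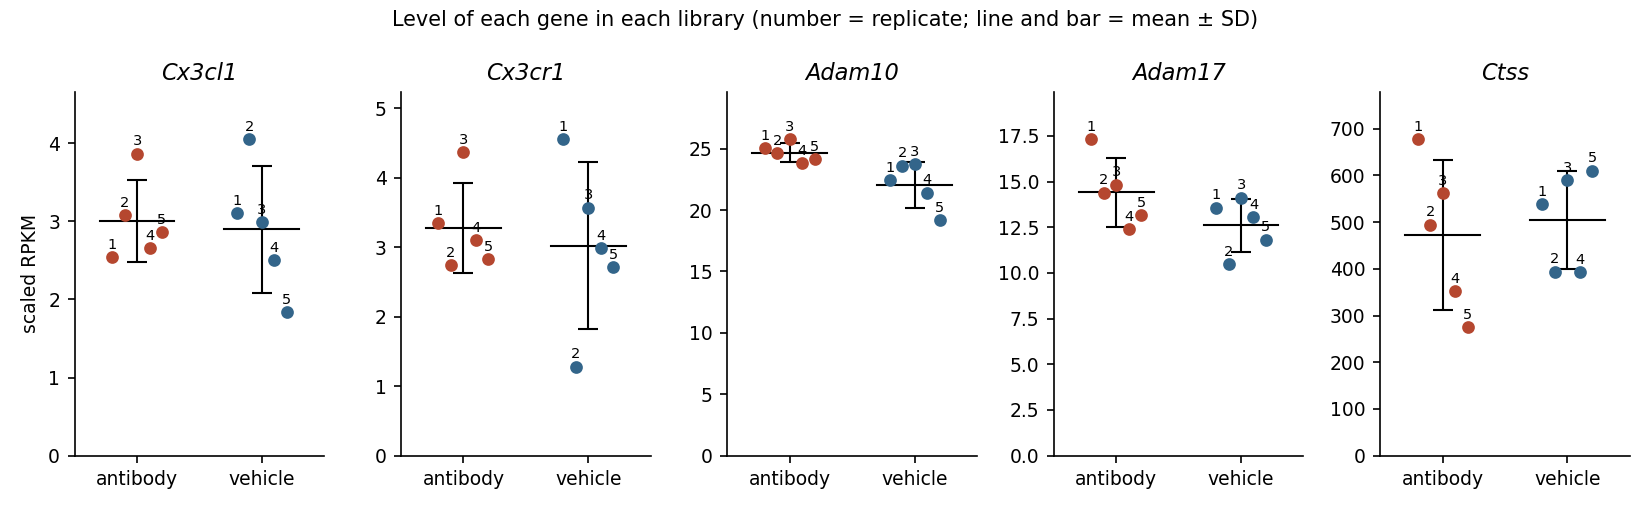
Scaled RPKM (vertical axis, from 0) of each of the 5 genes in the 5 antibody (left) and 5 vehicle (right) libraries. Points are libraries numbered by replicate, and lines and bars give the mean and SD. The Adam10 panel has no overlap between groups (23.8 to 25.8 RPKM under antibody, 19.2 to 23.7 RPKM under vehicle), as in 1.11% of all genes tested. Under the other scalings these groups overlapped. Vehicle replicate 2 lies lowest for Cx3cr1 at 1.28 RPKM.

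The ligand gene Cx3cl1 (ENSMUSG00000031778, mm10 chromosome 8, 94772009 to 94782423, plus strand) was a gene of modest level, rated at the 40.5th percentile of mean RPKM among tested genes. Its level was 2.54, 3.08, 3.87, 2.65 and 2.86 RPKM in antibody replicates 1 to 5. In vehicle replicates 1 to 5 it was 3.10, 4.05, 2.99, 2.51 and 1.84 RPKM. The highest and the lowest library were both vehicle (replicates 2 and 5), and the antibody values lay between them. Means were 3.0 ± 0.526 RPKM under antibody and 2.90 ± 0.814 RPKM under vehicle (SD, n = 5 each), so that the log2 difference was 0.07 (SE 0.17, 95% interval 0.802-fold to 1.37-fold) at a limma adjusted p of 0.935. The gene rested on 61 to 324 reads per library. Counting error alone corresponds to a coefficient of variation of 8.25%, against 22.0% observed over the 10 libraries. The sign of the difference turned without antibody replicate 3 (-0.02) and without vehicle replicate 5 (-0.06). No other annotated gene overlaps its span.

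The receptor gene Cx3cr1 (ENSMUSG00000052336, chromosome 9, 119901616 to 120068283, minus strand) was read in each library although the mice carry the human receptor. The sources used here do not say how reads of the human sequence were assigned, so the values are those of the mouse row. They were 3.35, 2.74, 4.37, 3.10 and 2.83 RPKM in antibody replicates 1 to 5. In vehicle replicates 1 to 5 they were 4.55, 1.28, 3.57, 2.99 and 2.71 RPKM. Vehicle replicate 2 stood apart at the low end, with 103 reads and a counting interval of 1.05 to 1.56 RPKM, below the next lowest library at 2.71 RPKM. Means were 3.28 ± 0.654 RPKM under antibody and 3.02 ± 1.20 RPKM under vehicle, so that the log2 difference was 0.17 (SE 0.25, 95% interval 0.768-fold to 1.64-fold) at a limma adjusted p of 0.879. Without vehicle replicate 2 the difference was -0.06, and without vehicle replicate 1 it was 0.32. The annotated span holds 8 other genes in GENCODE M21, but 0 of them share exon bases with it there.

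Adam10 (ENSMUSG00000054693, chromosome 9, 70678997 to 70780229, plus strand) encodes the membrane metalloprotease of constitutive shedding. Its level was 25.1, 24.6, 25.8, 23.8 and 24.2 RPKM in antibody replicates 1 to 5. In vehicle replicates 1 to 5 it was 22.4, 23.6, 23.7, 21.4 and 19.2 RPKM. The groups did not overlap, as in 1.11% of all genes tested, but the gap was narrow. The lowest antibody library stood at 23.8 RPKM (counting interval 22.8 to 24.8) and the highest vehicle library at 23.7 RPKM (22.8 to 24.6). Means were 24.7 ± 0.766 RPKM under antibody and 22.1 ± 1.87 RPKM under vehicle (SD, n = 5 each). The log2 difference was 0.16 (SE 0.08, 95% interval 0.989-fold to 1.27-fold), with an exact two-sided permutation p of 0.00794, the smallest that 5 libraries against 5 allow. By limma the unadjusted p was 0.0707 and the adjusted p 0.739, so the gene was not called. With medians of ratios as scaling the groups overlapped (23.8 to 25.5 RPKM in antibody, 19.0 to 23.9 RPKM in vehicle, exact permutation p = 0.0159), and with library totals only they overlapped as well (exact permutation p = 0.0317). The 2 lowest libraries, vehicle replicates 4 and 5, were also among the 3 highest in skeletal muscle genes. The other of these, antibody replicate 5, had 24.2 RPKM of Adam10. Without those 3 libraries the log2 difference was 0.092, and without vehicle replicate 5 alone it was 0.11. Adam10 and skeletal muscle genes had r = -0.57 (permutation p = 0.0763, adjusted 0.242, rho = -0.14, permutation p = 0.709, adjusted 0.852). Without vehicle replicates 4 and 5 that r was 0.23. The part of skeletal muscle genes in the Adam10 difference was not tested. Over the 10 libraries Adam10 varied by 8.25% (coefficient of variation), where genes within 2-fold of its read number had a median of 13.2%. Only 13.1% of those 2430 genes varied less.

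Adam17 (ENSMUSG00000052593, chromosome 12, 21323509 to 21373632, minus strand), which encodes the inducible sheddase also known as TACE, had 17.3, 14.4, 14.8, 12.4 and 13.2 RPKM in antibody replicates 1 to 5. In vehicle replicates 1 to 5 it had 13.6, 10.5, 14.1, 13.0 and 11.8 RPKM. Antibody replicates 1, 2 and 3 lay above the whole vehicle range and the other two antibody libraries within it. Means were 14.4 ± 1.88 RPKM under antibody and 12.6 ± 1.46 RPKM under vehicle, so that the log2 difference was 0.18 (SE 0.11, 95% interval 0.956-fold to 1.35-fold) at a limma adjusted p of 0.771 and an exact permutation p of 0.135. Without antibody replicate 1 the difference was 0.12. Adam17 shares 311 exon bases with Iah1 on the opposite strand, and since the use of strand is not given, reads there cannot be told apart.

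Ctss (ENSMUSG00000038642, chromosome 3, 95526786 to 95556403, plus strand) was by far the most abundant member, at the 99.5th percentile of tested genes. Its level was 677, 495, 562, 353 and 276 RPKM in antibody replicates 1 to 5. In vehicle replicates 1 to 5 it was 539, 394, 589, 394 and 610 RPKM. Both the highest and the lowest 2 libraries were antibody, and the vehicle values fell inside that range. Means were 472 ± 161 RPKM under antibody and 505 ± 105 RPKM under vehicle, so that the log2 difference was -0.14 (SE 0.27, 95% interval 0.601-fold to 1.36-fold) at a limma adjusted p of 0.905. With 3411 to 18649 reads per library, counting error was 1.05%, against 26.4% observed between libraries. The difference was 0.03 without antibody replicate 5 and -0.29 without antibody replicate 1.

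**Figure D2:**
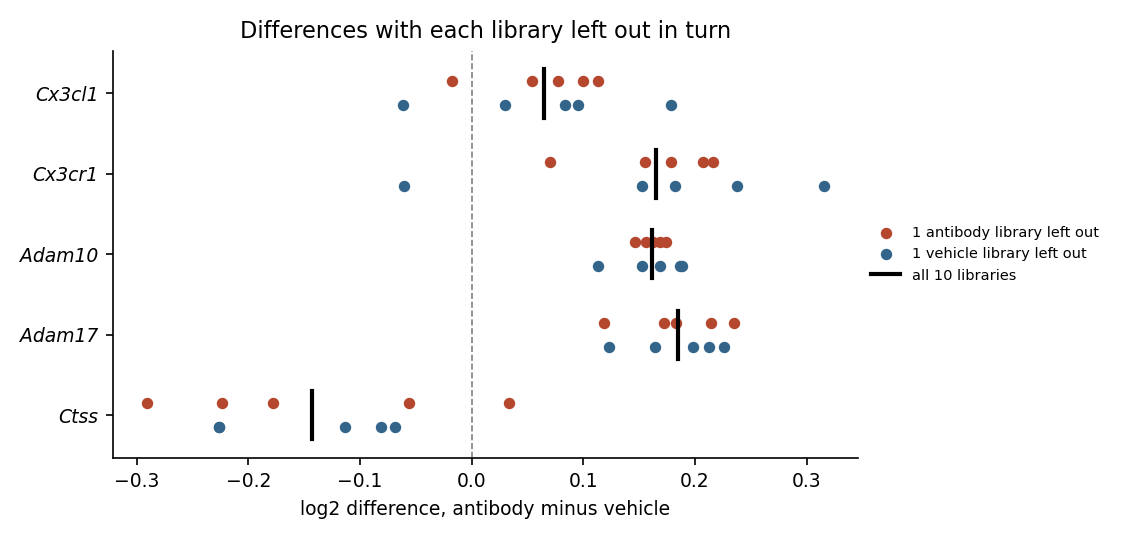
Log2 difference of each member (horizontal axis, antibody minus vehicle) with all 10 libraries (black bar) and with 1 antibody or 1 vehicle library left out (coloured points). Adam10 (0.11 to 0.19) and Adam17 (0.12 to 0.24) stay above 0 in all 10 refits, while Cx3cl1, Cx3cr1 and Ctss have points on both sides.

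Ratios of 3 pairs of members were compared within each library. The ratios printed are of scaled RPKM itself, whereas the log2 ratios tested had 0.5 RPKM added to each gene first, which draws ratios of low genes toward 1. The ligand to receptor ratio Cx3cl1 to Cx3cr1 was 0.759, 1.12, 0.885, 0.855 and 1.01 in antibody replicates 1 to 5. It was 0.682, 3.15, 0.837, 0.838 and 0.676 in vehicle replicates 1 to 5. Apart from vehicle replicate 2, the vehicle ratios lay between 0.676 and 0.838, and 4 of the 5 antibody ratios were above that range. The difference of the mean log2 ratio, with 0.5 RPKM added, was -0.10 with all libraries (exact two-sided permutation p = 0.968, adjusted over the 3 ratios 0.968) and 0.24 without vehicle replicate 2 (exact permutation p = 0.0873). With nothing added, the difference over all libraries was -0.13 (exact permutation p = 0.968). The Adam10 to Adam17 ratio was 1.73 ± 0.178 in antibody and 1.77 ± 0.269 under vehicle (SD, n = 5 each; exact permutation p = 0.881, adjusted 0.968). Vehicle replicate 2 again stood highest at 2.25, and the other vehicle libraries lay within 1.62 to 1.68. The Ctss to Cx3cr1 ratio ran from 97.3 to 202 in antibody and from 118 to 307 under vehicle (log2 difference -0.31 with 0.5 RPKM added and -0.36 with nothing added, exact permutation p = 0.294, adjusted 0.881).

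**Figure D3:**
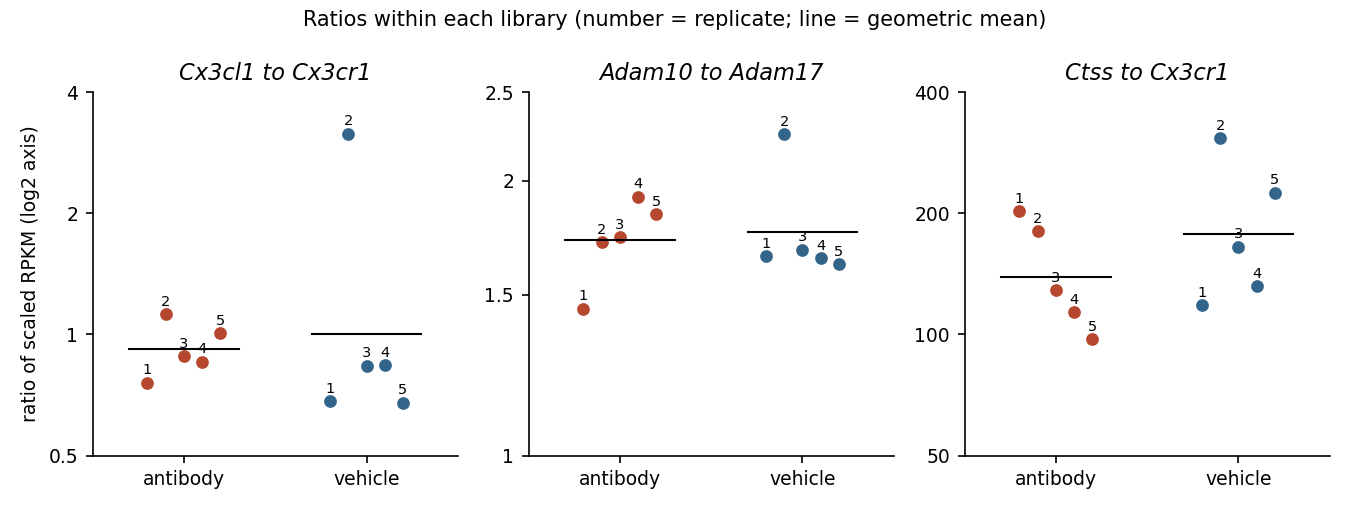
Ratio of scaled RPKM within each library (vertical axes, log2 scale) for the 3 pairs, antibody left and vehicle right, with points numbered by replicate and lines at the geometric mean. Vehicle replicate 2 is the highest point in the vehicle group of each panel, at 3.15, 2.25 and 307.

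Across the 10 libraries, 0 of 10 pairs of members had an adjusted permutation p below 0.05 for Pearson's r or Spearman's rho. The closest were Cx3cl1 with Adam10 (r = 0.70, permutation p = 0.0299, adjusted 0.198, rho = 0.35, permutation p = 0.331, adjusted 0.746) and Cx3cr1 with Adam17 (r = 0.68, permutation p = 0.0396, adjusted 0.198, rho = 0.62, permutation p = 0.0604, adjusted 0.302). Without the 2 libraries farthest from the median of Cx3cl1, and of Cx3cr1, these r values were 0.49 and 0.50. With each group centred on its own mean, they were 0.86 and 0.68. Adam17 with Ctss had r = 0.51 (permutation p = 0.138, adjusted 0.345), and 0.71 when centred. The centred values were not tested. Adam10 and Adam17 were ranked alike (rho = 0.75, permutation p = 0.0174, adjusted 0.174, r = 0.52, permutation p = 0.134, adjusted 0.345, r without 2 libraries 0.53), and r was 0.26 once each group was centred on its own mean. The ligand and the receptor had r = -0.14 (permutation p = 0.672, adjusted 0.840, rho = 0.18, permutation p = 0.633, adjusted 0.817), which was 0.61 without vehicle replicates 2 and 5, so that value rested on these 2 libraries.

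Marker genes of 13 cell types were set beside the members, giving 65 pairs. Correlations used the mean log2 level of each list, whereas the levels given beside them are sums of RPKM, which can rank libraries differently. Ctss moved with the macrophage list (r = 0.84, permutation p = 0.0028, adjusted 0.0455, rho = 0.79, permutation p = 0.00893, adjusted 0.145), and r was 0.80 without antibody replicates 4 and 5. That list, from Adgre1 and Csf1r to the complement genes C1qa, C1qb and C1qc, summed to 1398 to 2222 RPKM under antibody and 1753 to 2504 RPKM under vehicle. All 10 of its markers were tested, with 1 higher, 9 lower and 0 called. Adam17 moved with the neutrophil list (r = 0.85, permutation p = 0.00101, adjusted 0.0328, rho = 0.87, permutation p = 0.0021, adjusted 0.0682, r without 2 libraries 0.80). Neutrophil markers summed to 53.2 to 359 RPKM under antibody and 23.1 to 139.6 RPKM under vehicle, with 6 of the 7 markers tested, all 6 higher, 0 called, and the defining marker Ly6g at 0 in some libraries. Antibody replicates 1, 2 and 3, the 3 libraries in which Adam17 exceeded the vehicle range, were also the 3 highest for this list. Its part in the Adam17 values was not tested.

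Adam17 also had r = 0.89 with the patrolling monocyte list (permutation p = 0.00255, adjusted 0.0455, rho = 0.73, permutation p = 0.0209, adjusted 0.193), but 0.47 without antibody replicate 1 and vehicle replicate 2, on which it rested. That list holds Ace and Cd36, which endothelial cells express too. Its summed level was 105 to 179 RPKM under antibody and 133 to 169 RPKM under vehicle, with 5 of 7 markers higher, 2 lower and none of them at 0 in any library. By sum, antibody replicate 3 was the lowest library. By the mean log2 level that was correlated, vehicle replicate 2 was lowest, at 2.65. Adam10 ran opposite to the nerve and Schwann cell list (r = -0.90, permutation p = 0.00013, adjusted 0.00845, rho = -0.95, permutation p = 0.0001, adjusted 0.0065, r without 2 libraries -0.94). Those 7 markers were scarce, summing to 3.50 to 5.15 RPKM under antibody and 4.07 to 6.16 RPKM under vehicle, with Nefl and Snap25 at 0 in some libraries. Of the 6 tested, 1 was higher, 5 lower and 0 called, and their part in the Adam10 difference was not tested.

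Cx3cr1 and Cx3cl1 passed in none of these 65 pairs. Cx3cr1 had r = 0.82 with dendritic cell genes (permutation p = 0.0121, adjusted 0.112, rho = 0.64, permutation p = 0.0552, adjusted 0.299), and 0.32 without vehicle replicates 1 and 2. Its r with erythroid genes was nearly as high, at 0.79 (permutation p = 0.0171, adjusted 0.133, rho = 0.43, permutation p = 0.216, adjusted 0.523). Without the same libraries that r was 0.11. Cx3cl1 had r = 0.75 with endothelial genes (permutation p = 0.00774, adjusted 0.101, rho = 0.65, permutation p = 0.0496, adjusted 0.299), and 0.62 without vehicle replicates 2 and 5. The labels do not name a processing batch, so no within-batch values could be given.

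**Figure D4:**
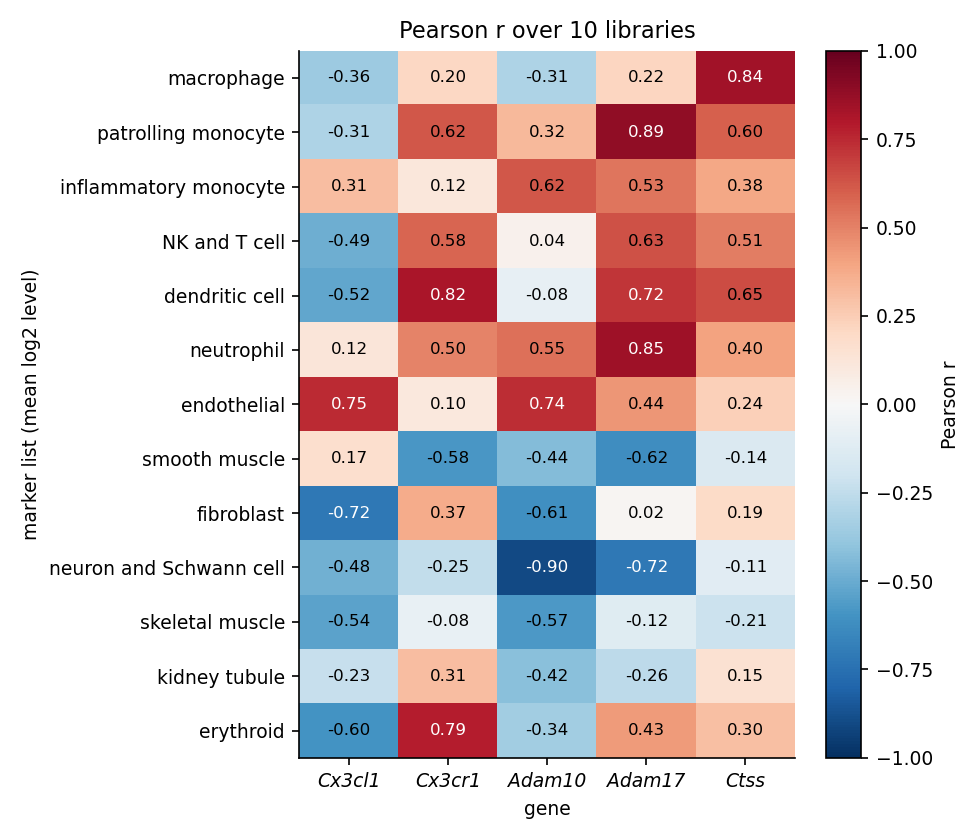
Pearson r over 10 libraries between each member (columns) and the mean log2 level of each cell type marker list (rows), coloured from -1 (blue) to 1 (red). The strongest cells are Adam10 with nerve and Schwann cell genes (-0.90), Adam17 with patrolling monocyte (0.89) and neutrophil genes (0.85), and Ctss with macrophage genes (0.84).

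The protein-coding genes most like each member over the 10 libraries were looked up among 11673 with a mean of at least 1 RPKM, by Pearson's r, as a description. Ctss was most like Trpv2 (r = 0.96), the leukocyte integrin gene Itgb2 (0.95), the cathepsin gene Ctsz (0.94), Cyba, a subunit of the phagocyte oxidase (0.94), and the kinase gene Prkcd (0.93). Cx3cr1 was most like Klrd1, a receptor gene of NK cells (0.91), Tap1, a peptide transporter of MHC class I loading (0.90), Insig1 (0.89), Rnase6 (0.89) and Hps3 (0.89). Each of these genes, like Cx3cr1, was lowest in vehicle replicate 2, with Klrd1 on 2 reads there. Their r without that library was not computed. Adam17 was most like Zfp119a (0.97), Irak2, a kinase-like adaptor of interleukin-1 signalling (0.97), Samsn1 (0.96), Cmtr1 (0.96) and Stap1 (0.95). Adam10 was most like Tex10 (0.95), the transcription factor gene Elf1 (0.94), Fam76b (0.94), Cdk17 (0.92) and Casp6 (0.92). Cx3cl1 was most like Cep41 (0.92), Apbb2 (0.90), the mismatch repair gene Msh6 (0.89), Senp5 (0.89) and Man1a2 (0.88).

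Genes that mature, escort or inhibit the ADAM sheddases were tested next, and 0 of 14 passed in either direction (6 higher, 8 lower, median log2 -0.04, against -0.0053 over all genes tested). Reck, a membrane-anchored inhibitor of metalloproteases, did not overlap between groups, as in 1.11% of all genes tested. It had 3.07, 3.53, 2.20, 3.55 and 3.20 RPKM in antibody replicates 1 to 5, and 4.42, 3.96, 3.57, 3.74 and 4.11 RPKM in vehicle replicates 1 to 5. All antibody values thus lay below all vehicle values, but the gap was narrow, from 3.55 to 3.57 RPKM. The log2 difference was -0.32 (SE 0.12), at a limma adjusted p of 0.739. Overlap of Reck under other scalings was not examined. Sfrp1, a secreted Wnt antagonist known also to inhibit ADAM10, was at 37.4 ± 10.4 RPKM under antibody and 27.1 ± 13.0 RPKM under vehicle (SD, n = 5 each). Rhbdf1, one of the inactive rhomboids that escort ADAM17, was at 6.87 ± 1.05 RPKM under antibody and 8.29 ± 1.51 RPKM under vehicle. Tspan5, a tetraspanin partner of ADAM10, was at 6.19 ± 0.711 RPKM under antibody and 6.84 ± 0.876 RPKM under vehicle. The inhibitor genes Timp1 (61.9 ± 17.3 RPKM in antibody, 62.3 ± 20.2 RPKM in vehicle) and Timp3 (18.6 ± 3.35 RPKM under antibody and 20.8 ± 3.96 RPKM under vehicle) had means closer than the spread of each group. Tspan10 was too scarce to be tested.

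Other ADAM proteases and Mmp2 gave 0 calls among 7 tested (2 higher, 5 lower, median log2 -0.05). Adam9 exceeded Adam10 in level, at 45.3 ± 3.65 RPKM under antibody and 42.2 ± 5.16 RPKM under vehicle. Mmp2, a gelatinase that can also cleave fractalkine, was at 311 ± 42.5 RPKM under antibody and 322 ± 37.6 RPKM under vehicle. Adam15 was at 17.2 ± 1.47 RPKM under antibody and 20.9 ± 4.42 RPKM under vehicle, Adam12 at 28.3 ± 1.52 RPKM under antibody and 30.3 ± 4.13 RPKM under vehicle and Adam33 at 2.69 ± 1.36 RPKM under antibody and 2.96 ± 0.811 RPKM under vehicle. Adam8, a leukocyte ADAM, ranged from 9.81 to 33.6 RPKM under antibody and from 11.3 to 27.3 RPKM under vehicle.

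Cysteine cathepsins, their cystatin inhibitors and the invariant chain gene Cd74, whose product is cut by cathepsin S, gave 0 calls among 14 (6 higher, 8 lower, median log2 -0.03). Ctsb was at 287 ± 29.9 RPKM under antibody and 322 ± 40.6 RPKM under vehicle. Cd74 was at 339 ± 183 RPKM under antibody and 280 ± 153 RPKM under vehicle, with vehicle replicate 2 at 37.5 RPKM and the other 9 libraries at 196 RPKM or more. Cst3, which encodes the inhibitor cystatin C, was at 180 ± 23.6 RPKM under antibody and 228 ± 52.1 RPKM under vehicle. Ctsf was at 10.9 ± 1.87 RPKM under antibody and 14.1 ± 3.04 RPKM under vehicle, and Ctso at 5.12 ± 0.678 RPKM under antibody and 5.99 ± 0.589 RPKM under vehicle. Cst7, a cystatin gene of leukocytes, rested on 1 to 24 reads.

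Among other membrane proteins shed by ADAM10 or ADAM17, 0 of 18 passed (12 higher, 6 lower, median log2 0.05), while 4 had an unadjusted p below 0.05, against 6.53% of all genes. Axl, a receptor kinase of the TAM family, was at 47.3 ± 3.14 RPKM under antibody and 70.4 ± 17.3 RPKM under vehicle (log2 -0.53, SE 0.17, limma adjusted p = 0.739). Vcam1, an endothelial adhesion molecule, was at 28.6 ± 7.48 RPKM under antibody and 20.1 ± 4.03 RPKM under vehicle, and the growth factor gene Hbegf at 2.47 ± 0.804 RPKM under antibody and 3.56 ± 0.878 RPKM under vehicle. Cxcl16, the other chemokine made as a transmembrane protein, was at 27.4 ± 10.2 RPKM under antibody and 21.9 ± 7.25 RPKM under vehicle (log2 0.30, SE 0.29, limma adjusted p = 0.818). App was at 219 ± 23.2 RPKM under antibody and 224 ± 24.3 RPKM under vehicle.

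Receptor signalling genes and the integrins that bind fractalkine gave 0 calls among 12 (7 higher, 5 lower, median log2 0.04). Syk, a kinase of immune receptors, was at 16.0 ± 3.57 RPKM under antibody and 11.8 ± 1.07 RPKM under vehicle (log2 0.40, SE 0.15, limma adjusted p = 0.739). Mapk3, encoding the kinase ERK1, was at 23.6 ± 2.31 RPKM under antibody and 29.2 ± 4.37 RPKM under vehicle. The integrin genes Itgb3 and Itga4 were at 13.4 ± 2.11 RPKM under antibody and 16.6 ± 2.57 RPKM under vehicle and at 5.81 ± 1.34 RPKM under antibody and 4.68 ± 1.11 RPKM under vehicle. Gnai2, a subunit of the G protein coupled to chemokine receptors, was at 90.8 ± 12.2 RPKM under antibody and 93.9 ± 11.7 RPKM under vehicle, and Itgb1 at 148 ± 7.68 RPKM under antibody and 152 ± 10.1 RPKM under vehicle.

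Cytokine and NF-kappaB genes known to induce Cx3cl1, with adhesion genes induced alongside it, gave 0 calls among 10 (8 higher, 2 lower). Their median log2 of 0.31 stood beside -0.0053 over all genes, and 5 of the 10 had an unadjusted p below 0.05, against 6.53% of all genes tested. The 4 of smallest p were the inducer genes Il1b and Relb and the adhesion genes Vcam1 and Selp. Ifng was too scarce to be tested. Il1b averaged 47.0 ± 30.3 RPKM under antibody, against 14.0 ± 12.2 RPKM under vehicle, with antibody replicates 1, 2 and 3 at 55.9 to 86.7 RPKM and the other 7 libraries at 32.1 RPKM or less. The same 3 antibody libraries had the highest neutrophil marker sums (238 to 359 RPKM, against 139.6 RPKM or less in the other 7). The 6 tested neutrophil markers had a median log2 difference of 1.21. Their part in the values of these inducer and adhesion genes was not tested. Selp, encoding P-selectin, was at 15.9 ± 6.15 RPKM under antibody and 8.49 ± 3.87 RPKM under vehicle, and Relb, of the NF-kappaB family, at 9.22 ± 1.49 RPKM under antibody and 6.96 ± 1.25 RPKM under vehicle. Tnf was at 2.52 ± 0.881 RPKM under antibody and 2.60 ± 1.11 RPKM under vehicle. Beside these, Cx3cl1 itself differed by 0.07 on the log2 scale.

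**Figure D5:**
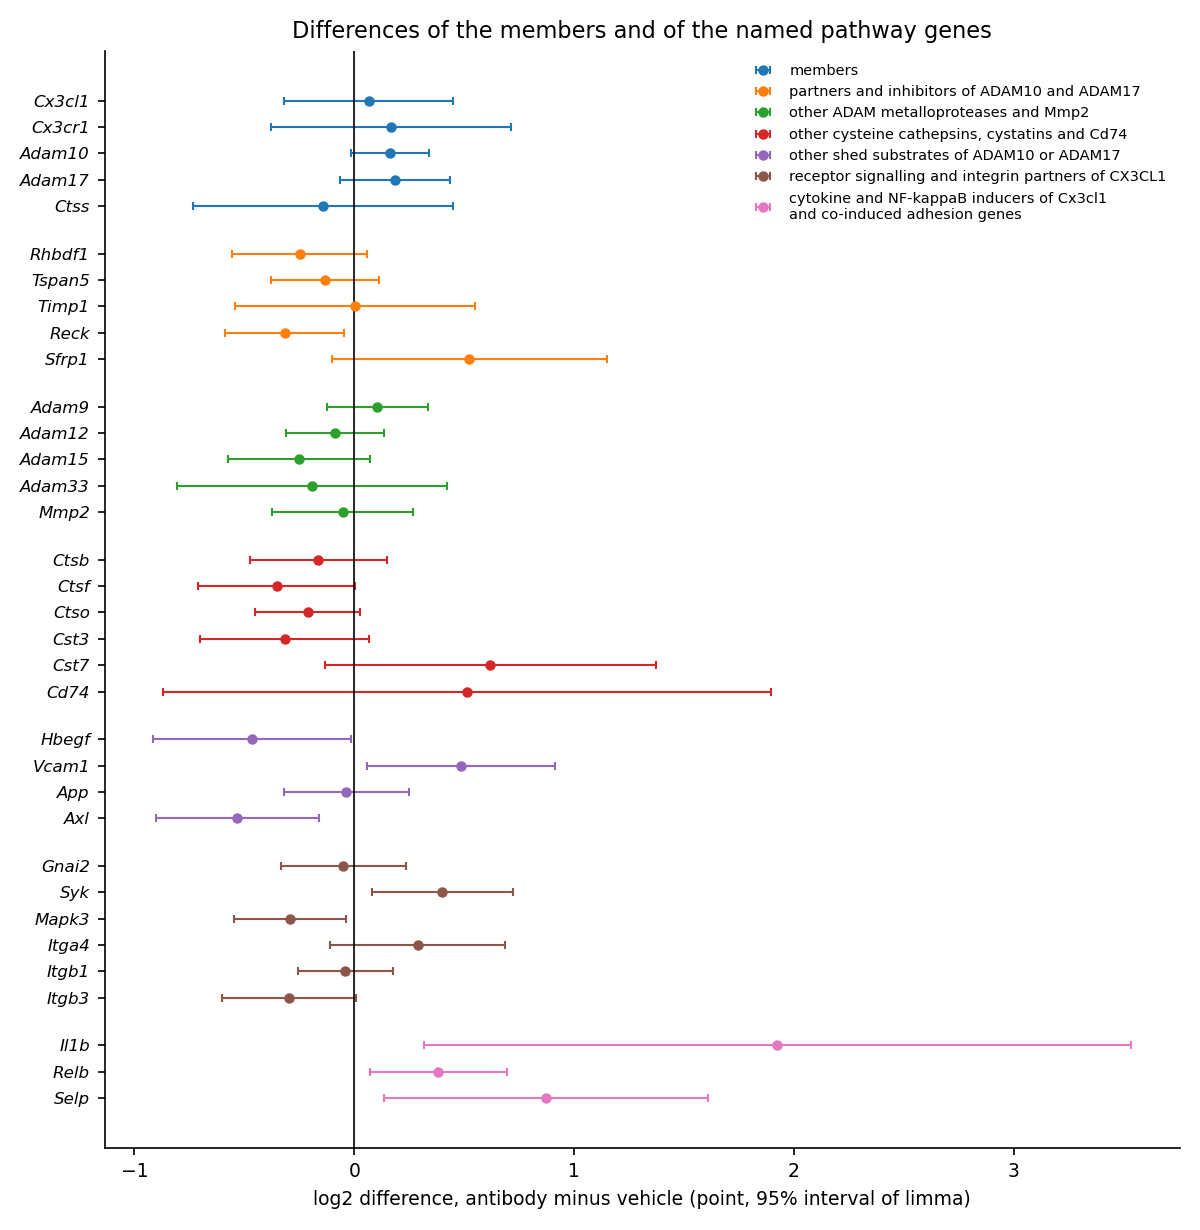
Log2 difference, antibody minus vehicle (horizontal axis), with the 95% interval of limma, for the 5 members and for the named genes of the 6 pathway lists (colours). Adam10 has the narrowest interval among the members (-0.02 to 0.34), and the widest among the genes plotted is that of Il1b (0.32 to 3.53).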

How the data were processed

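Each of the 10 libraries (5 antibody, 5 vehicle) was a TruSeq V2 library of 0.5 µg total RNA, per the labels' protocols. Build mm10 comes from the submitters' processing notes. Aligner, counting tool and strand setting: not given in the sources used here. The authors deposited RPKM per gene and library, per the file headers. Each value was multiplied by gene length plus 1 bp and divided by the smallest positive product of its library. The outcome was whole for 100% of values within 0.001. Taking that smallest product as 1 read, depth in reads assigned to genes was 4282872 to 34271554.

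RPKM was scaled by trimmed means of M values (factors 0.841 to 1.13). A filter of 0.513 CPM (10 reads at median depth) in 5 or more libraries, with 15 or more reads in total, left 17859 genes. On log2(scaled RPKM + 0.5), limma 3.58.1 under R 4.3.3 with variance trend gave two-sided tests of antibody minus vehicle. A gene was called at a Benjamini-Hochberg adjusted p under 0.05, computed over the 17859 genes. Fold changes on this scale understate those of low genes. Since the unit is RPKM, count models were not used as the main test. The fit was tested on simulated data. Alternatives were other scalings, pseudocounts and filters, limma-voom, a replicate block and leaving out libraries. Correlations used 100000 permutations. Counting intervals are exact 95% Poisson intervals and cover counting error only. Reference names were found for 42462 gene IDs.

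Members and gene lists were chosen with earlier results of these data known. Named genes were all members, up to 4 of smallest p and the 2 of highest level per list, and the 5 most alike per member; Timp3, Adam8, Cxcl16 and Tnf were added after their values were seen. Under this rule 1 further gene is not reported here. Replicates were compared for duplicate deposits, and every pair differed beyond sampling noise (chi-square over degrees of freedom at least 12.6).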

Additional observations from a re-analysis of the deposited data

Results flagged for a closer look

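With 0.5 RPKM added to each gene, the log2 ratio of Cx3cl1 to Cx3cr1 was 1.35 in vehicle replicate 2 and -0.49 to -0.21 in the other 4 vehicle libraries. The log2 ratio of Adam10 to Adam17, formed in the same way, was 1.13 in that library and 0.67 to 0.73 in the others. Both were singled out because the gap to the nearest library exceeded 0.71 of the group's range. Sets of 5 values were examined 16 times, and chance marks about 1 in 20. In this library Cx3cr1 (1.28 RPKM) and Adam17 (10.5 RPKM) were at their lowest and Cx3cl1 (4.05 RPKM) at its highest.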

How the results depend on the processing

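No member passed limma's threshold under any of the 21 alternatives run for each, with adjusted p from 0.629 (Adam10 without antibody replicate 5) upwards. Adam10 and Adam17 kept a positive difference in all 21. Cx3cl1 turned negative with limma-voom (-0.0065), without the 3 libraries highest in skeletal muscle genes (-0.14) and without the 4 highest in Kap (-0.032). Ctss turned positive in the last 2 of these settings (0.021 and 0.066), which were chosen after seeing the data. The cause was not tested. Leaving out single libraries gave log2 differences of -0.061 to 0.18 for Cx3cl1, -0.060 to 0.32 for Cx3cr1, 0.11 to 0.19 for Adam10, 0.12 to 0.24 for Adam17 and -0.29 to 0.033 for Ctss. The difference in the Adam10 to Adam17 log2 ratio ran from -0.061 to 0.063, that of Cx3cl1 to Cx3cr1 from -0.22 to 0.24 and that of Ctss to Cx3cr1 from -0.45 to -0.17. Genes called were 0 throughout, except 1 without the filter: Gm27598, with at most 2 reads in a library.

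Scaling by library totals moved the median of all genes to 0.063 and Adam10 to 0.24, against 0.16. Libraries of the groups share replicate numbers 1 to 5. With the number as a replicate block the differences were the same (Cx3cl1 0.07, Cx3cr1 0.17, Adam10 0.16, Adam17 0.18, Ctss -0.14) and 0 genes were called. Same-numbered libraries had correlated deviations of -0.095 to 0.35, and 1 of 5 matched its own number best. Depth limits the ligand and receptor most, at 61 and 73 reads in their lowest libraries.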

Other observations

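Vehicle replicate 2, lowest for Cx3cr1, also stood apart in genes chosen after their values were seen. Ccr2, the receptor gene of inflammatory monocytes, was at 2.95 RPKM there and at 8.59 to 20.1 RPKM in the other 9 libraries. The inflammatory monocyte marker list summed highest in this library, to 855 RPKM, against 398 to 618 RPKM in the others. Its mean log2 level of 3.37 there lay inside the 2.88 to 3.95 of the others. Itgax, a gene of dendritic cells and macrophages, was at 5.64 RPKM, inside the 3.43 to 20.04 RPKM of the others. H2-Ab1, an MHC class II gene, was at 15.4 RPKM, against 90.5 to 293 RPKM. Klrd1 was at 0.0727 RPKM, on 2 reads, against 0.522 to 2.45 RPKM. Chil3, a gene of alternatively activated macrophages and monocytes, went the other way, at 32.2 RPKM against 0.439 to 7.00 RPKM. The macrophage marker list summed to 1753 RPKM in this library, the lowest of the vehicle group but above 4 of the 5 antibody libraries. Lists of other cells differed there too. The erythroid list summed to 235 RPKM, against 562 to 1902 RPKM in the others. The smooth muscle list had its highest mean log2 level there (5.53, against 4.48 to 5.28). Its sum of 577 RPKM lay inside the 288 to 614 RPKM of the others.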
